A study of Mus musculus with 12 samples.

Results

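The genes described here are 9 markers of striatal medium spiny neurons, namely Drd1, Tac1, Drd2, Adora2a, Penk, Ppp1r1b, Rgs9, Pde10a and Scn4b, measured in mouse hypothalamus RNA. They were taken by gene symbol from 27308 symbols on the array, but the group was chosen by its measured signal in these same arrays, which was already known to vary, so its levels and differences are given as a description. Counts of the 9 genes past a criterion are printed in that sense only and support nothing. The 9 genes had 19 of the 56605 probes, and 17 of the 35229 probes tested. All 17 were well above background on all 12 arrays, whereas the remaining 2 probes, both for Tac1, were well above background on 1 KE array each and were not used. The value given for a gene is the normalized log2 signal of its brightest tested probe, so a difference of 1 is a doubling of signal, and signals of different genes cannot be ranked against each other.

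Total RNA of the hypothalamus was hybridized to 12 single-color arrays, 3 for each of 4 groups of male mice, to ask how loss of Asmt and swimming exercise alter gene expression. The groups were untrained wild-type mice (WT), untrained Asmt-knockout mice (KO), wild-type mice trained to swim (exercised WT) and Asmt-knockout mice trained to swim (KE). WT and exercised WT mice were wild-type littermates, and KO and KE mice were homozygous for the knockout, which goes back to Cas9 founders with a deletion of 20 bp in Asmt on the C57BL/6 background, backcrossed for 3 generations. The labels give an age of 6 to 7 weeks for every group, but in the study's methods this reads as the age when training began, so the age at collection is not settled. Asmt encodes the last enzyme of melatonin synthesis, and C57BL/6 mice are known for very low melatonin, so the control group is itself a limited model of intact melatonin signalling. The single Asmt probe was not well above background on any of the 12 arrays, so the knockout could not be checked from it.

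Medium spiny neurons are the inhibitory projection neurons that make up most of the striatum, the forebrain region beside and in front of the hypothalamus. Those of the direct pathway carry the dopamine receptor Drd1 and the neuropeptide precursor Tac1, whereas those of the indirect pathway carry the dopamine receptor Drd2, the adenosine receptor Adora2a and the enkephalin precursor Penk. Both kinds share a set of proteins that act on cyclic AMP and receptor signalling, and Penk, Tac1 and Drd2 are also made by neurons of the hypothalamus itself.

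Shown are the promoter sequences of 2 genes highest in the same array, Drd1 and Scn4b, and of 2 highest elsewhere, Tac1 and Drd2. Each is the 250 bases before the transcription start in RefSeq for GRCm38.p6, written 5′ to 3′ on the strand of the gene, and the more upstream of 2 listed starts was taken for Drd1. Capitals mark a CRE half-site (TGACG or CGTCA), to which cyclic AMP-responsive factors bind, or a GC box (GGGCGG or CCGCCC).
Drd1, chr13:54055659-54055908, minus strand: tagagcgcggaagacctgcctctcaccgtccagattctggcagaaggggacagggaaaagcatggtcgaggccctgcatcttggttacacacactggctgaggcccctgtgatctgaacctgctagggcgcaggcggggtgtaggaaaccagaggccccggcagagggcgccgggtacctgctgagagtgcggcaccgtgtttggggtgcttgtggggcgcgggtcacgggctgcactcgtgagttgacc
Scn4b, chr9:45138374-45138623, plus strand: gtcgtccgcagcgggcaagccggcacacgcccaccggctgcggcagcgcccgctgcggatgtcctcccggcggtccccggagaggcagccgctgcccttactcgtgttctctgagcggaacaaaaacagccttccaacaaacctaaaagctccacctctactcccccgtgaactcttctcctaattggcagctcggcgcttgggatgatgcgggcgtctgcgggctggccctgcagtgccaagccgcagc
Tac1, chr6:7554811-7555060, plus strand: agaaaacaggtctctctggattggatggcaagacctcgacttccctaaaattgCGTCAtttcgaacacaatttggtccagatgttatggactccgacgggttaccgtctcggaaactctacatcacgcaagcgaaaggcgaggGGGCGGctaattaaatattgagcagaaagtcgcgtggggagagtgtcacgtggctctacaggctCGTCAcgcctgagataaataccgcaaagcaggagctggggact
Drd2, chr9:49340153-49340402, plus strand: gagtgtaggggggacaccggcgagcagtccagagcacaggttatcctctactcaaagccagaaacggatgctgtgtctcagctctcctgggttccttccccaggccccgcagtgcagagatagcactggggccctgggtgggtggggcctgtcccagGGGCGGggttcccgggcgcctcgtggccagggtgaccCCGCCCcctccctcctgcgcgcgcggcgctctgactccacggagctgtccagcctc
No searched motif lay in the Drd1 and Scn4b windows, the Tac1 window held 2 CRE half-sites and 1 GC box, and the Drd2 window held 2 GC boxes. The window at the more downstream Drd1 start, which is not printed, held 1 GC box. Among 32851 RefSeq promoters of this length, 17.8% held a CRE half-site and 32.7% a GC box on either strand. The full CRE (TGACGTCA, 1.55% of promoters), the TATA box (TATAAA, 12.4%), a forkhead motif (TGTTTAC, 3.17%) and an Egr motif (GCGTGGGCG, 0.536%) were also searched on both strands and were in none of the 4 windows. The full CRE contains the half-site. The GC content was 64.0% for Drd1, 66.0% for Scn4b, 51.2% for Tac1 and 68.8% for Drd2, against a median of 52.4% over all promoters. Promoters were available for 6 of the 9 genes, and not for Adora2a, Penk and Ppp1r1b. Those of Rgs9 and Pde10a, whose highest signal was in the same array as for Drd1 and Scn4b, are not printed. The Rgs9 window held 1 GC box and 1 TATA box. For Pde10a the more upstream of 2 starts had 1 GC box and the other no searched motif. GC boxes thus occurred among genes highest in that array and among genes highest elsewhere, and their part in the signal was not tested.

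The arrays as a whole were alike in quality. Between 61.62% and 67.91% of 59305 spots were well above background on each array, no spot was saturated, and the correlation between arrays lay between 0.9831 and 0.9965. The first principal component held 48.5% of the variance and separated the 2 slides, with the 3 WT arrays and KO replicates 1 and 2 on slide 1, and KO replicate 3 and all exercised WT and KE arrays on slide 2. The exercised WT and WT arrays were on different slides, so slide and swimming cannot be told apart between those groups alone, while KE versus exercised WT lay within slide 2. All of 16 hypothalamic genes read for the labelled tissue, such as Hcrt, Pmch, Avp and Oxt, were well above background on every array of at least 1 group. So were all 9 striatal markers and all of 8 thalamic genes, so this detection cannot check the dissection.

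A single exercised wild-type sample stood apart in the striatal markers. Exercised WT replicate 3 had the highest signal of all 12 arrays for 7 of the 9 genes, namely Drd1, Adora2a, Penk, Ppp1r1b, Rgs9, Pde10a and Scn4b. A second array, WT replicate 3, was next highest for Drd1, Penk, Ppp1r1b and Scn4b. Drd2 and Tac1 were not highest there, and their highest arrays were KO replicate 3 and KO replicate 1. This sorting is by the highest array only. Against the mean of exercised WT replicates 1 and 2, exercised WT replicate 3 was 0.358 higher for Drd2 and 0.315 higher for Rgs9. Exercised WT replicate 3 was the highest array for 8.16% of all tested probes and the lowest for 8.27%, and it was not unusual in detection, with 67.5% of spots well above background.

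**Figure D1:**
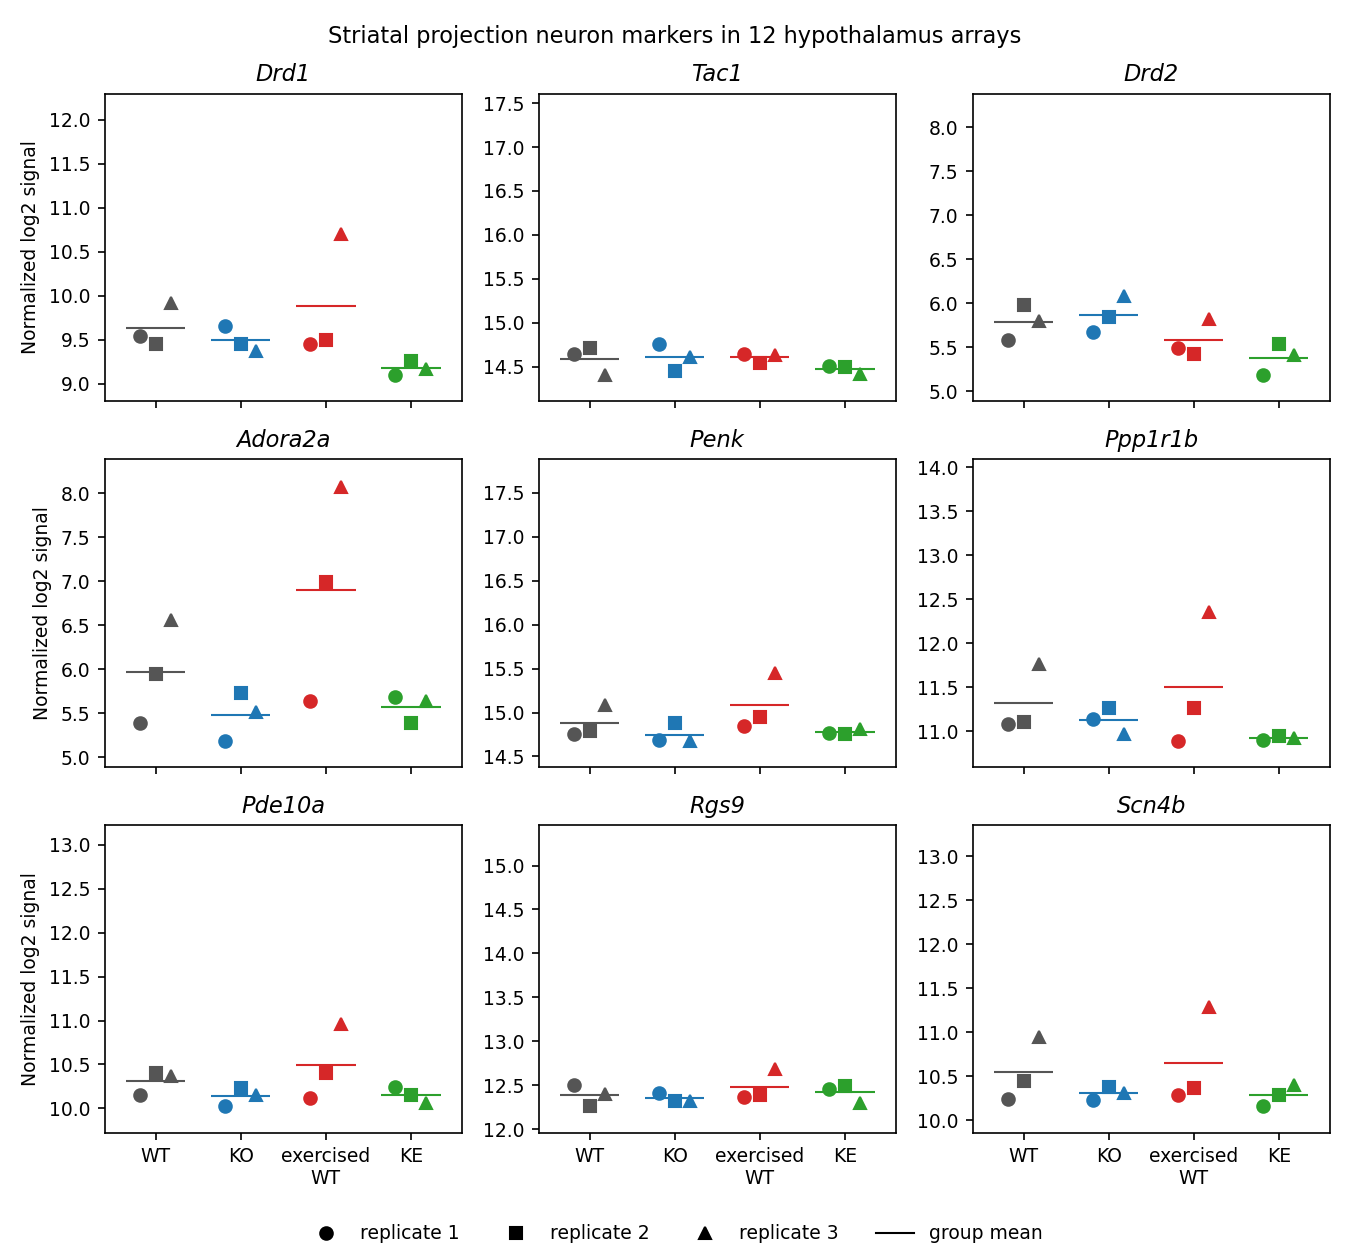
Normalized log2 signal (y axis) of the brightest probe of each of the 9 genes in the 4 groups (x axis), with 1 point per array, its shape giving the replicate number, and a line at the group mean; every panel spans the same number of log2 units. Exercised WT replicate 3, the red triangle, is the highest point for 7 genes, with Adora2a at 8.07 and Ppp1r1b at 12.35, while Tac1 and Drd2 show no such point.

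Drd1, the receptor through which dopamine activates direct-pathway neurons, had log2 signals of 9.54, 9.45 and 9.92 in WT, 9.66, 9.45 and 9.37 in KO, 9.10, 9.25 and 9.16 in KE, and 9.45, 9.50 and 10.70 in exercised WT replicates 1, 2 and 3. The value in exercised WT replicate 3 was 1.23 above the mean of the other 2 exercised WT arrays, a 2.34-fold difference, and the 3 KE arrays were below every other array. The probe lies at chr13:54146585-54146644 on the minus strand (mm9, as are all probe positions here). Differences of an array from its group are given here and below against the mean of the other 2 arrays of that group. A second Drd1 probe also had its highest value in exercised WT replicate 3, at 8.57, against 6.93 to 7.55 on the remaining arrays.

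Tac1, the precursor of substance P in direct-pathway neurons, had log2 signals of 14.65, 14.72 and 14.41 in WT, 14.76, 14.46 and 14.61 in KO, 14.51, 14.49 and 14.41 in KE, and 14.65, 14.54 and 14.64 in exercised WT. The whole range was 0.35, and exercised WT replicate 3 was within 0.04 of its group. WT replicate 3, high for several striatal markers, was the lowest array for Tac1, 0.27 below the mean of WT replicates 1 and 2. The probe lies at chr6:7512893-7512952 on the plus strand.

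Of the indirect-pathway genes, Drd2, the inhibitory dopamine receptor, had log2 signals of 5.59, 5.98 and 5.79 in WT, 5.68, 5.84 and 6.08 in KO, 5.18, 5.53 and 5.41 in KE, and 5.49, 5.42 and 5.82 in exercised WT. The 3 KE arrays lay below the 3 KO arrays, and exercised WT replicate 3 was 0.36 above its group. Its single probe lies at chr9:49215047-49215106 on the plus strand.

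Adora2a, the adenosine receptor that raises cyclic AMP in indirect-pathway neurons, had log2 signals of 5.39, 5.95 and 6.56 in WT, 5.19, 5.73 and 5.51 in KO, 5.69, 5.39 and 5.63 in KE, and 5.64, 6.99 and 8.07 in exercised WT. It had the widest range of the 9 genes, 2.88, and exercised WT replicate 3 was 1.76 above the other exercised WT arrays, a 3.38-fold difference. Exercised WT replicate 2 came next, followed by WT replicate 3, while exercised WT replicate 1 lay among the KO and KE arrays. The single probe lies at chr10:74797461-74797520 on the plus strand.

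Penk, the precursor of the enkephalins, had log2 signals of 14.76, 14.79 and 15.09 in WT, 14.69, 14.88 and 14.68 in KO, 14.77, 14.75 and 14.82 in KE, and 14.85, 14.95 and 15.46 in exercised WT. Again exercised WT replicate 3 was above its group, by 0.56 (1.47-fold), and WT replicate 3 was 0.31 above its own. On a second Penk probe both arrays read 10.08, and the remaining arrays 9.54 to 9.97. The brightest probe lies at chr4:4060735-4060794 on the minus strand.

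Of the genes shared by both pathways, Ppp1r1b encodes DARPP-32, the phosphatase inhibitor switched by dopamine through cyclic AMP. Its log2 signals were 11.08, 11.10 and 11.76 in WT, 11.14, 11.26 and 10.96 in KO, 10.89, 10.94 and 10.92 in KE, and 10.89, 11.26 and 12.35 in exercised WT. Exercised WT replicate 3 was 1.27 above its group (2.42-fold), although exercised WT replicate 1 was the lowest of all 12 arrays. WT replicate 3 was 0.66 above its own group, and the KE arrays lay below the KO arrays. A second probe read 7.80 in exercised WT replicate 3, 7.56 in WT replicate 3 and 6.42 to 6.99 elsewhere. The brightest probe lies at chr11:98218965-98219024 on the plus strand.

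Scn4b, a sodium channel beta subunit, had log2 signals of 10.24, 10.45 and 10.94 in WT, 10.22, 10.37 and 10.31 in KO, 10.16, 10.29 and 10.40 in KE, and 10.29, 10.37 and 11.29 in exercised WT. Both exercised WT replicate 3, by 0.96, and WT replicate 3, by 0.60, were above the mean of the other arrays of their group, and no other array passed 10.45. The probe lies at chr9:44962045-44962104 on the plus strand.

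Pde10a, a phosphodiesterase that breaks down cyclic AMP and cyclic GMP, had log2 signals of 10.16, 10.40 and 10.37 in WT, 10.02, 10.23 and 10.16 in KO, 10.24, 10.15 and 10.06 in KE, and 10.12, 10.40 and 10.96 in exercised WT. Here exercised WT replicate 3 stood alone, 0.69 above its group (1.62-fold), and WT replicate 3 was at the level of WT replicate 2. The probe lies at chr17:9174995-9175054 on the plus strand.

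Rgs9, a regulator that ends G protein signalling below dopamine receptors, had log2 signals of 12.50, 12.26 and 12.40 in WT, 12.41, 12.32 and 12.32 in KO, 12.46, 12.49 and 12.30 in KE, and 12.36, 12.39 and 12.69 in exercised WT. The highest array, by 0.19, was again exercised WT replicate 3, and the whole range was 0.43. Of 5 Rgs9 probes, 3 were highest in exercised WT replicate 3, and over all members this held for 11 of 17 probes. The brightest probe lies at chr11:109086675-109086734 on the minus strand.

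To place the arrays on one scale, each gene was set to its own mean over the 12 arrays and the 9 deviations were averaged. This member mean was 0.78 in exercised WT replicate 3 and 0.25 in WT replicate 3, and it lay between -0.22 and 0.09 in the other 10 arrays. By group it was 0.05 ± 0.19 in WT, -0.09 ± 0.04 in KO, -0.20 ± 0.02 in KE and 0.25 ± 0.47 in exercised WT (log2, mean ± SD, n = 3). The spread among the exercised WT arrays, 0.91, thus exceeded the distance between any 2 group means, and the KE arrays were nearly alike. The range over arrays was 0.99, or 0.47 without exercised WT replicate 3. Without Penk and Tac1, which the hypothalamus makes abundantly, exercised WT replicate 3 stood at 0.91 and WT replicate 3 at 0.32. For the median member the range over arrays was 0.93 and the within-group SD was 0.23, against 0.52 and 0.14 for the median of all tested probes. In tissue RNA, more striatal cells in a sample and more of these RNAs per cell cannot be told apart.

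Other genes known for the striatum were then read in the same arrays. Of 30 such genes, 28 were tested, and Chrm4 and Gpr52 were not well above background in any whole group. Exercised WT replicate 3 was above the mean of exercised WT replicates 1 and 2 for 27 of the 28, with a median of 0.25, and was the highest array for 16. WT replicate 3 was above the mean of WT replicates 1 and 2 for 20, with a median of 0.10, and was the highest array for 4. Over all tested probes its median was -0.004 and it was the highest array for 9.13%, so 4 of 28 was not far above that share. Over all tested probes the median in exercised WT replicate 3 was 0.00 and the 95th percentile 0.34, while the median of the 9 markers was 0.69.

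Among the widest-ranging of these genes, the 5 described here had their highest value in exercised WT replicate 3, and 4 of the 5 had the next highest in WT replicate 3, Ano3 being the exception. Arpp21, a cyclic AMP-regulated phosphoprotein, was 1.65 above the other exercised WT arrays. The transcription factors Meis2, Bcl11b and Sp9 were 1.23, 0.88 and 0.80 above, and the anoctamin Ano3 was 0.63 above. For Arpp21 only the brightest probe had this pattern to that extent. Its 3 dimmer tested probes read 7.52, 6.31 and 5.49 in exercised WT replicate 3, against 7.32 to 7.74, 5.58 to 6.27 and 4.85 to 6.14 elsewhere.

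**Figure D2:**
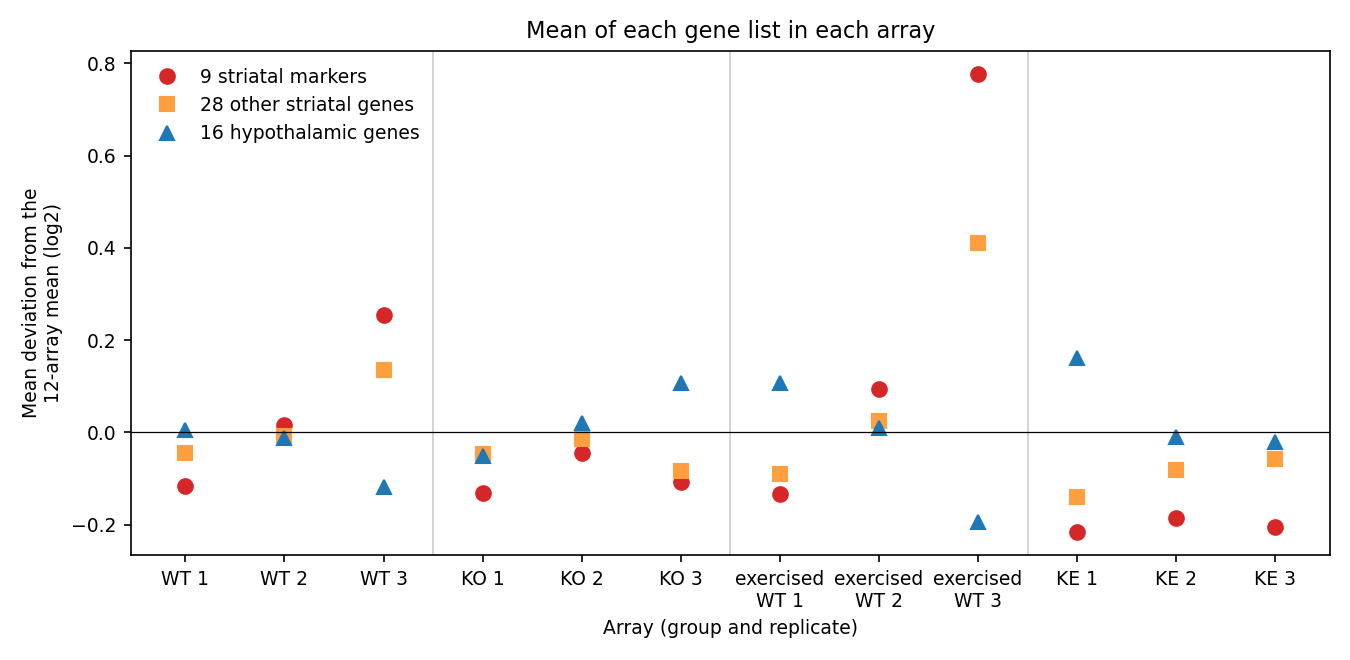
Mean deviation from the 12-array mean (y axis, log2) in each array (x axis) of the 9 striatal markers (red circles), 28 other striatal genes (orange squares) and 16 hypothalamic genes (blue triangles). In exercised WT replicate 3 the striatal means are 0.78 and 0.41 while the hypothalamic mean is -0.19, and in WT replicate 3 the 3 means are 0.25, 0.14 and -0.12.

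Markers of other regions and cell types moved with the striatal genes to different degrees. All 4 genes of basal forebrain cholinergic neurons (Chat, Slc5a7, Slc18a3 and Lhx8) were highest in exercised WT replicate 3, and their mean deviation was 1.58 there, 1.18 in WT replicate 3 and 0.82 in KO replicate 2, against -1.40 to 0.69 in the other arrays. Lhx8, a transcription factor of these neurons, read 11.22 in exercised WT replicate 3, 11.04 in WT replicate 3 and 10.48 in KO replicate 2. KO replicate 2 had a striatal marker mean of only -0.05, so this array was high for the cholinergic genes and not for the striatal ones. Striatal interneurons also express the cholinergic genes.

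Of 16 hypothalamic genes, 14 were lower in exercised WT replicate 3 than the mean of exercised WT replicates 1 and 2, with a median of -0.31, and 10 had their lowest value of all arrays there, including Pomc, Agrp, Avp, Trh, Otp and Nkx2-1. All 4 genes of dopamine neurons (Th, Slc6a3, Slc18a2 and Ddc) were also lowest in exercised WT replicate 3. In WT replicate 3, 4 of the 16 hypothalamic genes were above the mean of WT replicates 1 and 2, and the median was -0.12. Crh was highest in WT replicate 3 and next highest in exercised WT replicate 3. Sim1 had its lowest value in WT replicate 3, 4.10 against a median of 6.32 over the arrays. The medians in exercised WT replicate 3 were 0.44 for 8 thalamic genes, of which Gbx2, Tnnt1, Tcf7l2 and Prkcd were highest there, and -0.01 for 6 cortical genes tested. They were 0.21 for 6 oligodendrocyte, 0.06 for 6 astrocyte, 0.07 for 6 microglial, 0.08 for 5 endothelial, 0.03 for 5 pan-neuronal and -0.14 for 7 choroid plexus genes. Among 5 anterior pituitary genes, Prl, Gh, Cga and Pou1f1 were not well above background in any whole group. The part of any of these cell types in the striatal values was not tested.

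**Figure D3:**
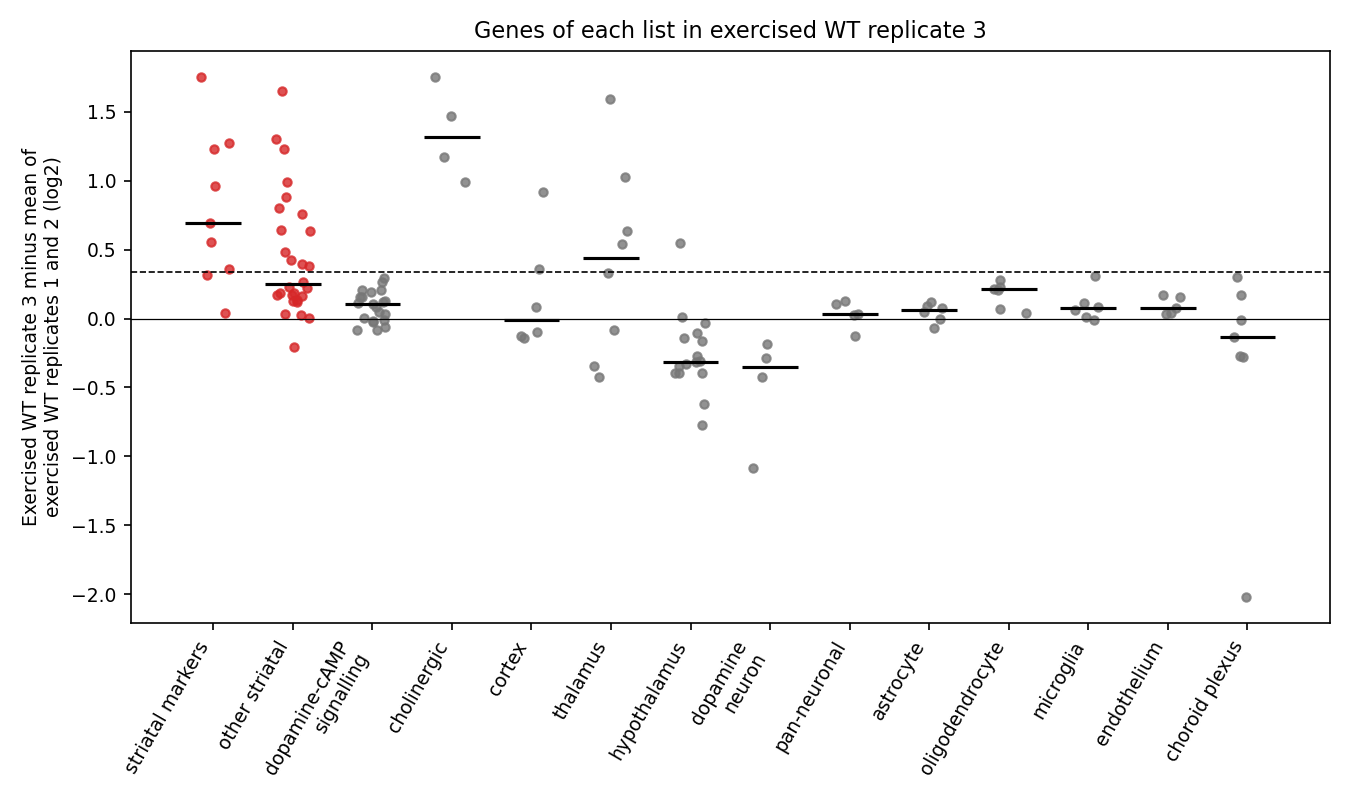
Difference of exercised WT replicate 3 from the mean of exercised WT replicates 1 and 2 (y axis, log2) for each tested gene (points) of 14 lists (x axis), with a bar at each list's median and a dashed line at the 95th percentile of all tested probes, 0.34. The 2 striatal lists (red) have medians of 0.69 and 0.25, the cholinergic list has 1.32 and the hypothalamic list -0.31.

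Genes of the same signalling pathway that were in neither striatal list were also read. There were 21 such genes of dopamine and cyclic AMP signalling, among them Gnas, Prkaca, Ppp3ca, Cdk5, Pde4b and Pde7b, and how widely each is expressed was not examined. In exercised WT replicate 3, 15 of them were above the mean of the other exercised WT arrays, with a median of 0.11. The median range of these genes was 0.27, against 0.52 for all tested probes, so they varied less than most probes on the array. In exercised WT replicate 3, 0 of the 21 were past the 95th percentile of all tested probes, 0.34, and 13 of the 28 other striatal genes were. These counts are a description, since both lists were drawn up with earlier results of these data known. Of the 9 markers 7 were, with Drd2 among them and not Rgs9 or Tac1, but the 9 had been chosen for their signal in these arrays. Past the same percentile were also 4 of 4 cholinergic, 4 of 8 thalamic, 2 of 6 cortical and 1 of 16 hypothalamic genes. Passing it was thus not particular to the 2 striatal lists.

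The 9 markers differed in how far they followed each other. Across the 12 arrays, Pearson's r between a gene and the mean of the other 8 was 0.96 for Ppp1r1b, 0.94 for Penk, 0.93 for Pde10a, 0.93 for Scn4b, 0.92 for Drd1 and 0.85 for Adora2a, and 0.57 for Rgs9, 0.27 for Drd2 and 0.03 for Tac1. Spearman's rho was 0.80, 0.59, 0.72, 0.66, 0.75, 0.64, -0.04, 0.43 and 0.03 in the same order. Without exercised WT replicate 3 and WT replicate 3, r over the other 10 arrays was 0.72 for Ppp1r1b and 0.69 for Pde10a, 0.50 for Penk and Scn4b, 0.41 for Drd1, 0.32 for Adora2a, 0.12 for Tac1, 0.09 for Drd2 and -0.46 for Rgs9. Spearman's rho over these 10 arrays was 0.65, 0.55, 0.30, 0.41, 0.56, 0.41, 0.28, 0.35 and -0.43 in that order. So r was lower without the 2 arrays for 8 of the 9 genes, least for Drd2, Ppp1r1b and Pde10a, and slightly higher for Tac1. These values are descriptions over arrays that share slides and groups.

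Among genes outside the 9, the signal most like the member mean over the 12 arrays was that of St6galnac5, a sialyltransferase (r = 0.965), with high values also for Arpp21 (0.961), Lrrc10b (0.959), Krt9 (0.955), Ano3 and Kcnh3 (0.953 each), Crym (0.952), and Ppp1r2 and Ano2 (0.945 each). Arpp21, Lrrc10b and Ano3 were also among the 30 other striatal genes. Crym, a thyroid hormone-binding protein, read 12.34 in exercised WT replicate 3, 10.93 in WT replicate 3 and 9.90 to 10.65 in the other arrays. Over all tested probes the median r was 0.01, and 54 probes (0.153%) passed 0.9. Without exercised WT replicate 3 and WT replicate 3, r for these 9 genes lay between 0.516 and 0.877, the highest being Ano3. With each group set to its own mean, Lrrc10b, St6galnac5, Gpr25, Neto2, Arpp21, Rims2, Slamf9, Zc3h6 and Akap5 were among the first 10, with r from 0.948 to 0.981.

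By group mean, exercised WT was the highest group for 8 of the 9 genes and KE the lowest for 5. Without exercised WT replicate 3, exercised WT was highest for 2 (Adora2a and Penk), WT for 4, KO for 2 and KE for 1, and KE was still lowest for 5. For Drd1, Ppp1r1b, Rgs9, Pde10a and Scn4b no 2 neighbouring group means differed by more than the within-group SD. The widest such gap was for Adora2a, 0.93 between exercised WT and WT, against a within-group SD of 0.69.

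For KO versus WT the median log2 difference of the 9 genes was -0.14, against -0.01 for all tested probes, and it was -0.03 without WT replicate 3. None of the 9 met a screening criterion with the limits used in the study, a fold of at least 2 and an unadjusted p of at most 0.05, computed here with limma, which 0.227% of tested probes met. With the methods' t-test in place of limma, 0 of the 9 met it in each of the 4 comparisons. Within slide 1, which leaves out KO replicate 3, the median was -0.10. The KO and WT arrays overlapped for all 9 genes, while KO lay above WT without overlap for 3.6% of tested probes and below it for 5.03%.

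For KE versus KO the median was -0.02, against -0.04 for all tested probes, and none of the 9 met the criterion that 1.21% of tested probes met. Of the 9, Drd2 had the largest difference, -0.49 (SE 0.15). Drd1, Drd2 and Ppp1r1b were lower in every KE than in every KO array, an arrangement seen for 15.4% of tested probes. KO replicates 1 and 2 were on the other slide from KE. Only KO had arrays on both slides, so with the slide as a block KE was set against KO replicate 3 alone. The difference of Drd2 then went to -0.70, that of Drd1 from -0.32 to -0.20 and that of Ppp1r1b from -0.20 to -0.04. KO replicate 3 was the highest of all arrays for Drd2.

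For exercised WT versus WT the median was 0.18, against -0.04 for all tested probes, and it was -0.05 without exercised WT replicate 3. None of the 9 met the criterion that 2.19% of tested probes met, and the arrays of both groups overlapped for all 9 genes, while exercised WT lay above WT without overlap for 15.5% of tested probes and below it for 22.1%. Ppp1r1b differed by 0.18 with all arrays and by -0.24 without exercised WT replicate 3, and Drd1 by 0.25 and -0.16.

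For KE versus exercised WT the median was -0.34, against -0.01 for all tested probes, and 1 of the 9 genes, Adora2a, met the criterion with limma, as 0.25% of tested probes did, and 0 met it with the methods' t-test. Adora2a differed by -1.33 (SE 0.51), and by -0.74 (SE 0.41) without exercised WT replicate 3, when it no longer met the criterion. Drd1 moved from -0.71 to -0.30, Ppp1r1b from -0.58 to -0.15, Scn4b from -0.37 to -0.05 and the median from -0.34 to -0.12. Drd1, Penk and Tac1 were lower in every KE than in every exercised WT array, as were 11.3% of tested probes.

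**Figure D4:**
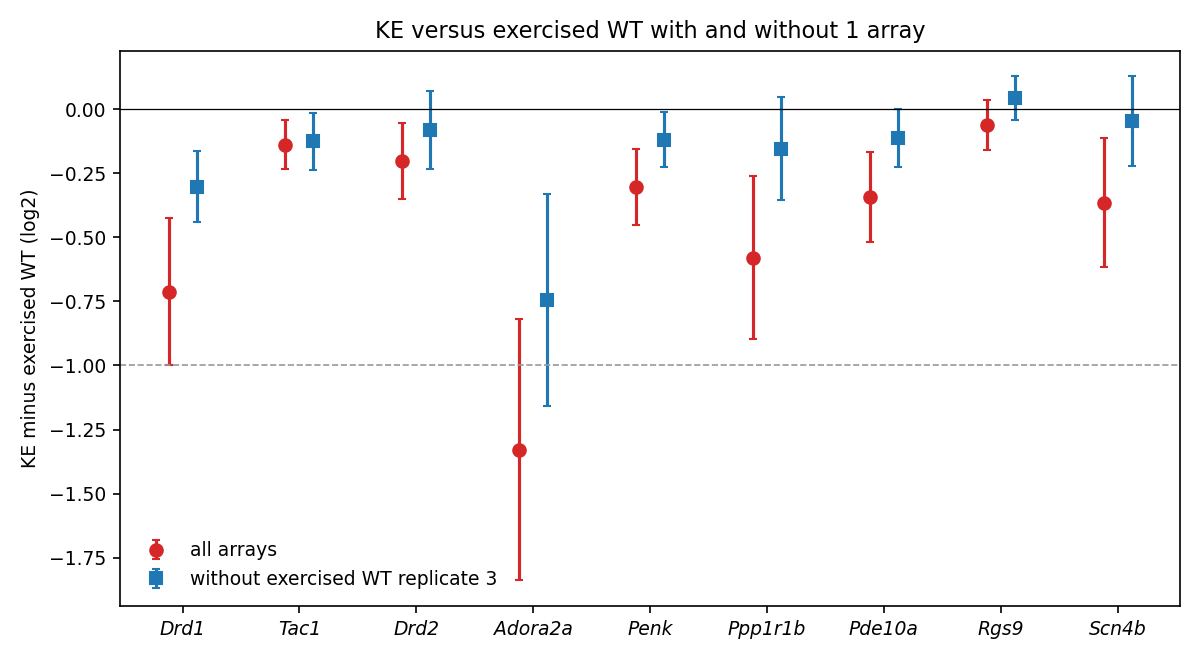
KE minus exercised WT difference (y axis, log2) of each of the 9 genes (x axis) with all arrays (red circles) and without exercised WT replicate 3 (blue squares), with bars of 1 SE and a dashed line at a fold of 2. Without that array all 9 differences move toward 0 or past it, Adora2a from -1.33 to -0.74 and Drd1 from -0.71 to -0.30, and Tac1 shifts least, from -0.14 to -0.13.

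The 28 other striatal genes were tested with all probes by limma. None passed an adjusted p of 0.05 in the 4 comparisons or in the swimming by genotype interaction, whereas over all 35229 probes 7 (0.0199%) passed in KE versus KO and 0 elsewhere. The count over all probes depended on the arrays and the test. Without KO replicate 3, KE versus KO gave 8589 probes, with 1 of the 28 genes among them, while exercised WT versus WT gave 6333 and 0 of the 28. Without that array, all KO arrays were on slide 1 and all KE arrays on slide 2. Slide and swimming cannot be told apart in either comparison of that fit. When any other single array was left out, 0 to 4 probes passed in KE versus KO, and the count there was 0 with 75th-percentile scaling or the replicate block. The methods' t-test after adjustment passed 0 of the 28 genes in the 4 comparisons, and over all probes 1620 in exercised WT versus WT and 0 in the others. Only the 2 compared groups in the limma fit gave 2942 probes in exercised WT versus WT, and again 0 of the 28 genes. At an unadjusted p under 0.05 the 28 genes gave 0 in KO versus WT and in KE versus KO, 4 in exercised WT versus WT (Eya1, Gnal, Pdyn and Rxrg), 3 in KE versus exercised WT (Ano3, Rarb and Slc35d3) and 0 in the interaction. The shares of all tested probes were 5.47%, 21.1%, 25.9%, 6.71% and 7.76% in the same order. With the slide as a block none of these 4 genes passed in exercised WT versus WT (unadjusted p = 0.571 for Eya1, 0.98 for Gnal, 0.806 for Pdyn and 0.662 for Rxrg), and in KE versus exercised WT Ano3 stayed (0.00751) while Rarb (0.0506) and Slc35d3 (0.0537) did not. Gpr6, an orphan receptor of indirect-pathway neurons, had an unadjusted p under 0.05 in that blocked fit, and not in the unblocked one. This held in exercised WT versus WT, KO versus WT, KE versus exercised WT and the interaction, with adjusted p from 0.283 to 0.783. Only KO had arrays on both slides, so the slide term was set by KO replicate 3 against KO replicates 1 and 2. Gpr6 was highest in KO replicate 2, next highest in KO replicate 1 and lowest in KO replicate 3. The median differences of the 28 genes were -0.07, -0.05, 0.09, -0.12 and -0.10, and without exercised WT replicate 3 those of exercised WT versus WT and KE versus exercised WT were -0.04 and -0.01.

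The probes past the screening criterion in the exercised groups also changed when exercised WT replicate 3 was left out. In KE versus exercised WT 88 probes met it with all arrays and 129 without that array, 66 of them shared. Leaving out any other single array of these 2 groups gave 95 to 115 probes, so a change in the count was not particular to that array. In exercised WT versus WT 707 of 771 probes were still among the 857 that passed without exercised WT replicate 3. Leaving out any other single array of these 2 groups gave 715 to 897 probes, the most without WT replicate 2.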

How the data were processed

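Per the file headers, Feature Extraction 10.7.1.1 had subtracted background and corrected trends within each array, and the deposited scanner values are the intensity of each spot. The authors also deposited a table with raw intensity and log2 values quantile-normalized over all 12 arrays in GeneSpring. Raw values of both sources lay within 0.01 on the log2 scale for 56514 to 56589 of 56605 probes per array. The authors' 4 lists of differing probes hold p-values and fold changes, and these and their 24 columns of values per sample were not used.

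Non-control spots without outlier marks were put on the log2 scale, averaged per probe and quantile-normalized. As in the methods, testing was limited to probes well above background in each of the 3 arrays of 1 or more groups (35229 probes, 18266 genes). Probes share 1 spread over the 4 groups in limma 3.58.1 (R 4.3.3), with Benjamini-Hochberg adjustment over all tested probes. A probe met the screening criterion at a fold of at least 2 and an unadjusted p of at most 0.05. The labels do not say that each array was a separate animal, so p-values measure the spread between these samples, and 3 arrays per group limit the precision. On simulated data with 200 of 35229 probes shifted by 2 on the log2 scale, the fit recovered 189 to 191 of them at the 0.05 threshold in each comparison. The simulated noise was independent, with no slide effect and no outlying array. Smaller shifts, such as those of the genes described here, were not simulated.

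The members and all gene lists were chosen with earlier results of these data known. The text names all 9 members by their brightest tested probe, the 10 genes most like the member mean over 12 arrays and the 10 within groups, the 6 widest-ranging of the other striatal genes, and Asmt, except 1 gene of these likeness and range sets, which is not reported here. The rule also took the widest-ranging gene of each other list, of which Lhx8 and Gbx2 are named for their values in exercised WT replicate 3 and Sim1 for its value in WT replicate 3. Other gene names were chosen after their values were seen, to illustrate a list or a count. Replicates carry the numbers of the sample titles. Same-numbered samples did not deviate together, with correlations from -0.19 to 0.24. Alternatives were 75th-percentile scaling, normexp with an offset of 50, the authors' table, outlier spots kept, other detection filters, the mean over probes, only the compared groups in the fit, the methods' t-test, slide and replicate blocks, leaving out Penk and Tac1, and leaving out each array. Leaving out both high arrays was added after seeing the data. Promoters were read from RefSeq tables (GRCm38.p6). Tables were made in Python 3.11.15 with pandas 2.3.3 and figures with matplotlib 3.10.9.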

Additional observations from a re-analysis of the deposited data

How the results depend on the processing

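Exercised WT replicate 3 had the highest member mean under every setting that kept it, from 0.65 with normexp to 0.91 without Penk and Tac1, and WT replicate 3 was second wherever both were kept. The range of the member mean, 0.99, lay between 0.47 and 0.99 when single arrays were left out and was 0.31 without both high arrays. The widest spread within a group, 0.91, lay between 0.37 and 0.91, and was 0.23 without both. The median difference of the members in KE versus exercised WT, -0.34, lay between -0.53 and -0.12 when single arrays were left out, that in exercised WT versus WT between -0.05 and 0.32, that in KO versus WT between -0.20 and -0.03, and that in KE versus KO between -0.08 and 0.01.

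The 1 member past the screening criterion in KE versus exercised WT, Adora2a, was lost, leaving 0, with normexp, the methods' t-test, the fit on the 2 groups compared, and without both high arrays, and the count lay between 0 and 1 when single arrays were left out (0 without exercised WT replicate 2, exercised WT replicate 3 or KE replicate 2). In exercised WT versus WT the count was 0 to 1, and 1 without exercised WT replicate 1. Among other striatal genes, leaving out single arrays gave 0 to 1 past the criterion in KE versus exercised WT (1 without exercised WT replicate 1) and 0 to 1 in KE versus KO with an adjusted p under 0.05 (1 without KO replicate 3, when 8589 of 35229 probes passed). Without KO replicate 3 the KO and KE arrays were on different slides, so slide and swimming cannot be told apart there. The replicate numbers did not pair the samples, and with the replicate block 1 member was still past the criterion in KE versus exercised WT, the 7 probes of KE versus KO past the adjusted threshold became 0, and the other striatal genes at an unadjusted p under 0.05 went from 3 to 6 in KE versus exercised WT and from 0 to 1 in KO versus WT and in KE versus KO. When single arrays were left out, that unadjusted count was 1 to 9 in KE versus exercised WT (9 without exercised WT replicate 1, and 1 without any of the KE arrays, exercised WT replicate 3 or WT replicate 2) and 1 to 6 in exercised WT versus WT (1 without WT replicate 3, 2 without WT replicate 1 or exercised WT replicate 2, 6 without exercised WT replicate 1). The causes of these shifts were not tested. With 3 arrays per group, a single array sets both the mean and the spread of its group.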
